A study of Mus musculus with 6 samples.

Results

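The circRNAs described here were 110 circular RNAs from 79 genes that encode RNA-binding and RNA-processing proteins, out of 14236 circRNA probes on the array. A circRNA was taken when the symbol of its host gene began with a prefix of such a family (among them Rbfox, Celf, Mbnl, Hnrnp, Khdrbs, Rbm, Prpf, Ddx, Dhx, Upf, Cnot, Eif, Tnrc6, Stau, Strbp, Cpsf and Nup) and when it stood in at least 1 of 3 lists. Of the 110, 32 were in the deposited table of circRNAs higher in HuD KO, 42 in the deposited table of circRNAs lower in HuD KO, and 38 in the study's list of circRNAs bound by HuD, which as used here held 658 circRNAs of 497 genes, fewer than the study's text counts. Both Strbp mmu_circRNA_33369 and Stau2 mmu_circRNA_19703 were HuD-bound and in the higher table, and 0 members were HuD-bound and in the lower table. Host names were given for 3056 circRNAs in all, so further circRNAs of these families may lie among the unnamed probes, which were not analysed here. In the text below, a circRNA of this kind is called a member.

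RNA from the striatum of 3 HuD KO mice (Elavl4 -/-, without the gene of the RNA-binding protein HuD) and 3 WT littermates was compared, all adult males of strain C57BL6. RNA was extracted with Trizol, digested with RNase R to remove linear RNA, copied into Cy3-labelled cRNA from random primers and hybridized to a mouse circRNA array, with 1 array for each mouse. The HuD-bound list was made by the authors from other mice, whose striatum carried myc-tagged HuD driven by the Camk2a promoter, with tissue of several mice pooled for each immunoprecipitation. Binding was thus read in cells where that transgene is active, and it does not depend on the HuD KO arrays. In bulk striatum, fewer cells of a type and less RNA per cell cannot be told apart.

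A circRNA forms when the spliceosome joins the end of a downstream exon to the start of an upstream one, and many circRNAs of the brain come from genes whose own products act on RNA. Several of those products, such as Quaking, Muscleblind and hnRNP proteins, are known to bind the introns that flank circularized exons or otherwise to alter how often circles form. HuD is a neuronal member of the ELAV-like family, known for binding AU- and U-rich elements of target RNAs and stabilizing them, so circles of other RNA-binding protein genes lie where regulators of RNA and their own transcripts meet.

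Each probe was designed on the back-splice junction, and the 60 bases that mark a circle are shown for the HuD-bound members on which the results turn. They are written 5′ to 3′ as given in the tables, and capitals mark the longest stretch of at least 12 bases shared with another member of the same host gene. Where there are no capitals, the junction shared no such stretch. Cpsf6 gave 3 HuD-bound circles that share their lower coordinate and differ at the other end (mmu_circRNA_008959, chr10:117355934-117367988; mmu_circRNA_015241, chr10:117355934-117360555; mmu_circRNA_22683, chr10:117355934-117361360, all exonic and on the minus strand). On that strand the shared coordinate is the 3′ end of the circularized exons. Stau2 and Strbp (chromosomes 1 and 2, minus strand) gave circles that were all called higher, Upf2 (chr2:5982991-6034251, plus strand) the largest fall, and Hnrnpu and Rbfox2 each gave a pair of circles with unlike changes, which did not pass the test described below.
Cpsf6 mmu_circRNA_008959: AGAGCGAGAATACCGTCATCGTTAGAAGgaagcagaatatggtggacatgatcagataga
Cpsf6 mmu_circRNA_015241: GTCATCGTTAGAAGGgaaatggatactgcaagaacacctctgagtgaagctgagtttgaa
Cpsf6 mmu_circRNA_22683: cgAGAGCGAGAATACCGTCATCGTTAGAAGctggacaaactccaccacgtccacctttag
Stau2 mmu_circRNA_005382: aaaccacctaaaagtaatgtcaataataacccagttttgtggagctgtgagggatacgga
Strbp mmu_circRNA_33369: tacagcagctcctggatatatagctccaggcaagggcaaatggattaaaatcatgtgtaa
Upf2 mmu_circRNA_32914: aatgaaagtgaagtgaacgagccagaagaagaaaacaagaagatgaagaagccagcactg
Hnrnpu mmu_circRNA_015788: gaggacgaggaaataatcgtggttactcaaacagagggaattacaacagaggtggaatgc
Hnrnpu mmu_circRNA_21394: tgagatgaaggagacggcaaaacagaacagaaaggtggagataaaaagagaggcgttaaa
Rbfox2 mmu_circRNA_28797: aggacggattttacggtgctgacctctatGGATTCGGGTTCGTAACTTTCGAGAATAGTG
Rbfox2 mmu_circRNA_28798: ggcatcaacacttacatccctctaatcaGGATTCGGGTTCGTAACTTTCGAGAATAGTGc

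Probes of circles from 1 host gene can therefore read much of the same sequence, as the 28 bases common to Cpsf6 mmu_circRNA_008959 and mmu_circRNA_22683 and the 31 bases common to both Rbfox2 circles show. Longer stretches were shared in members of the deposited tables, among them 41 bases in the Nup188 pair, 34 in Strbp and 33 in the Cnot4 pair. Junctions of Strbp from the higher table are shown because 5 Strbp circles stood in it.
Strbp mmu_circRNA_19241: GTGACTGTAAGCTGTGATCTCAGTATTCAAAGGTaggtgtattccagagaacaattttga
Strbp mmu_circRNA_33363: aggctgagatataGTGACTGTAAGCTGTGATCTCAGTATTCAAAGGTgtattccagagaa
Strbp mmu_circRNA_19242: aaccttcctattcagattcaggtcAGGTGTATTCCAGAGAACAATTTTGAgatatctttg

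Positions are those of the tables, which name no genome build and do not say whether starts count from 0 or 1. All 110 members had a host gene in a RefSeq table of GRCm38.p6, 1 of them through a synonym, and 108 lay inside the span of that gene, including all 89 exonic ones. Exceptions were Rbm4 mmu_circRNA_19218 and Eif4e3 mmu_circRNA_40611.

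Levels below are log2 intensities after the scanner software's background correction, minus the 75th percentile of the circRNA probes on the same array, so that 0 is the level of a fairly bright probe. No scan held both groups, with WT on 1 scan and HuD KO on 2, so scan and genotype cannot be told apart. Array by array, 84.0% to 96.7% of probes exceeded background clearly, and no spot was saturated. Across probes, arrays of 1 group correlated at 0.969 to 0.992 and arrays of different groups at 0.861 to 0.907. No circRNA of Elavl4 was named in the tables, so the deleted gene gave no check of the labels. CircRNAs of neuronal genes (among them Grin2b, Homer1 and Syt1) and of Bcl11b and Foxp1, genes expressed in striatal neurons, were well above background on all 6 arrays, as was 1 of the astrocyte gene Slc1a2. These marker circRNAs moved with genotype: 11 of 12 from neuronal genes, 2 of 4 from Bcl11b and Foxp1 and 1 of 1 from Slc1a2 had the higher mean in HuD KO. The log2 of their summed level was 6.59 to 6.85 in HuD KO and 5.17 to 5.58 in WT for the neuronal genes, 3.70 to 3.85 and 4.94 to 5.25 for Bcl11b and Foxp1, and 2.23 to 2.66 and 1.61 to 1.96 for Slc1a2. The lower sum for Bcl11b and Foxp1 rested on 1 circle, Foxp1 mmu_circRNA_40615, with a mean of 4.71 in WT and 1.01 in HuD KO. That circle is HuD-bound and in the lower table. Bcl11b went from 1.45 in WT to 1.18 in HuD KO, while 2 other Foxp1 circles rose, from 1.80 to 2.28 and from 0.76 to 2.05. Each marker circRNA stands in at least 1 of the 3 lists, since the lists name the probes. The part of the marker circRNAs in the members' changes was not tested. None of 5 oligodendrocyte and 5 microglial marker genes had a named circRNA, so the share of those cells could not be checked.

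To see how targets of HuD fared without it, the 38 HuD-bound members were compared between HuD KO and WT. All 38 were well above background on all 6 arrays and all entered the test. At a limma adjusted p under 0.05, 12 were higher in HuD KO (31.6%) and 5 were lower (13.2%), while 26.2% of all 13445 probes tested were called higher and 37.2% lower (63.4% in either direction). The other 21 were not called. The median log2 change of the 38 was 0.27 and their changes ran from -1.99 to 1.56, while all tested probes had a median of -0.11. HuD KO levels lay above every WT level in 18 members and below every WT level in 8, where 29.8% and 40.4% of all probes did so.

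Of 619 tested HuD-bound circRNAs of other genes, 268 were called higher (43.3%) and 87 lower (14.1%), at a median change of 0.37, and whether the members differ from these was not tested. HuD-bound members were bright probes, with a median level of 0.48 against -1.30 over all probes. Across the 38 probes, Pearson's r between the mean level over the 6 arrays and the change was 0.63, and 0.38 across all probes. That level contains the change itself, and with the level in WT alone r was 0.44 and 0.11. What part of the members' change goes with their brightness was not tested.

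**Figure D1:**
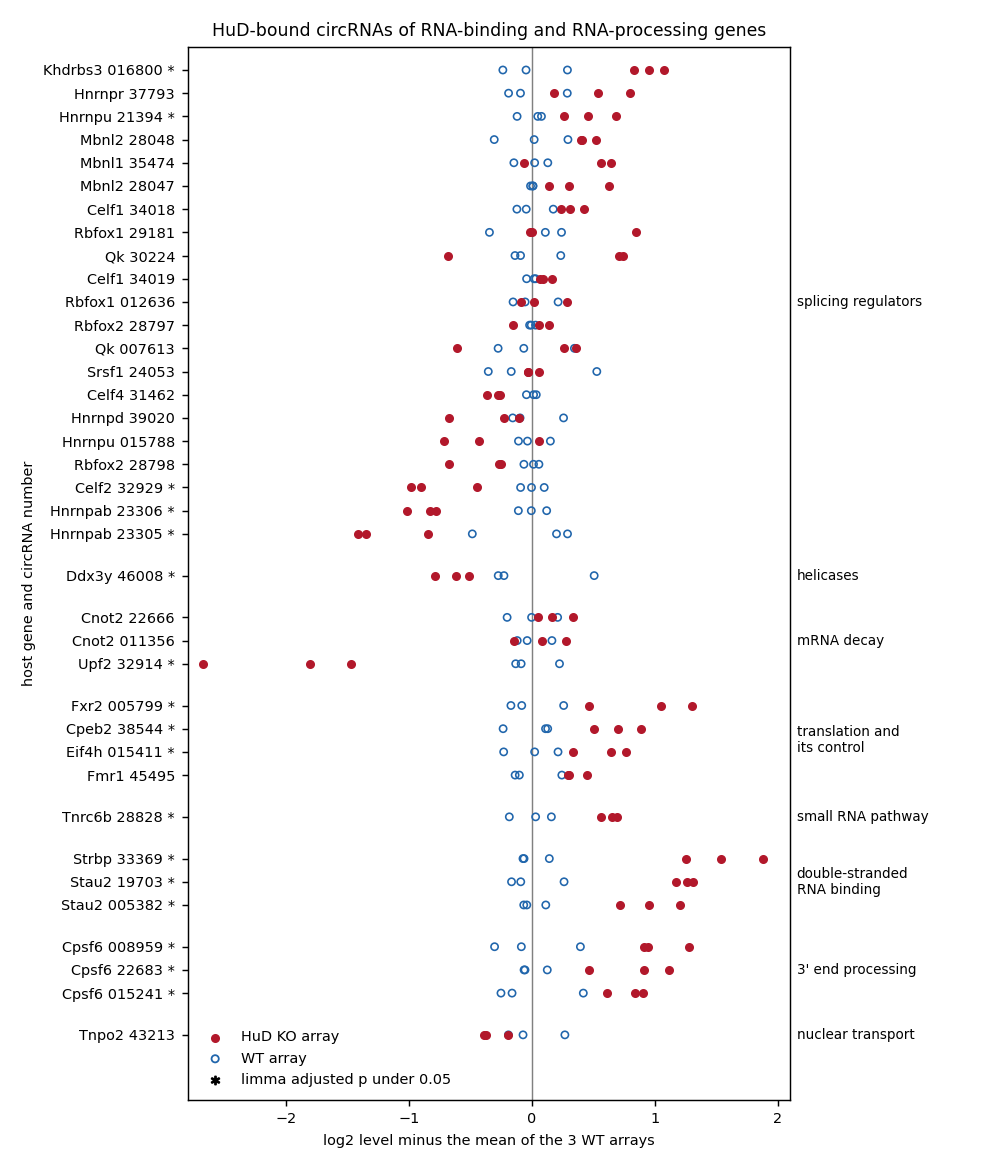
Level of 37 of the 38 HuD-bound members on the 3 HuD KO arrays (filled) and the 3 WT arrays (open), in log2 units relative to the mean of the WT arrays, grouped by the role of the host gene; an asterisk marks a limma adjusted p under 0.05. HuD KO points lie to the right for the 3 Cpsf6, 2 Stau2 and 1 Strbp circles, to the left for Upf2, Hnrnpab, Celf2 and Ddx3y, and near the WT points for most splicing regulators; with scaling on the circRNA control probes the values of the called members mmu_circRNA_015241 (Cpsf6), Eif4h, Cpeb2, Tnrc6b and mmu_circRNA_21394 (Hnrnpu) were below 0.

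The scaling between arrays set how many members passed in each direction. With quantile normalization 13 were called higher and 5 lower, where 34.3% and 28.2% of all probes were. Median scaling gave 19 and 4, beside 34.8% and 31.8% of all probes, and no scaling 23 and 1, beside 39.8% and 19%. Scaling on the 14 circRNA control probes of the array, whose signal was itself higher in HuD KO, gave 1 higher and 19 lower, beside 4.55% and 63.1% of all probes, so the calls over the whole array swung the same way. The median over all probes was 0.12, 0.09, 0.41 and -0.89 under these settings, and that of the HuD-bound members 0.17, 0.47, 0.78 and -0.52. Relative to all probes the members lay 0.38 higher under every scaling by 1 value for each array, but 0.05 higher after quantile normalization.

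**Figure D2:**
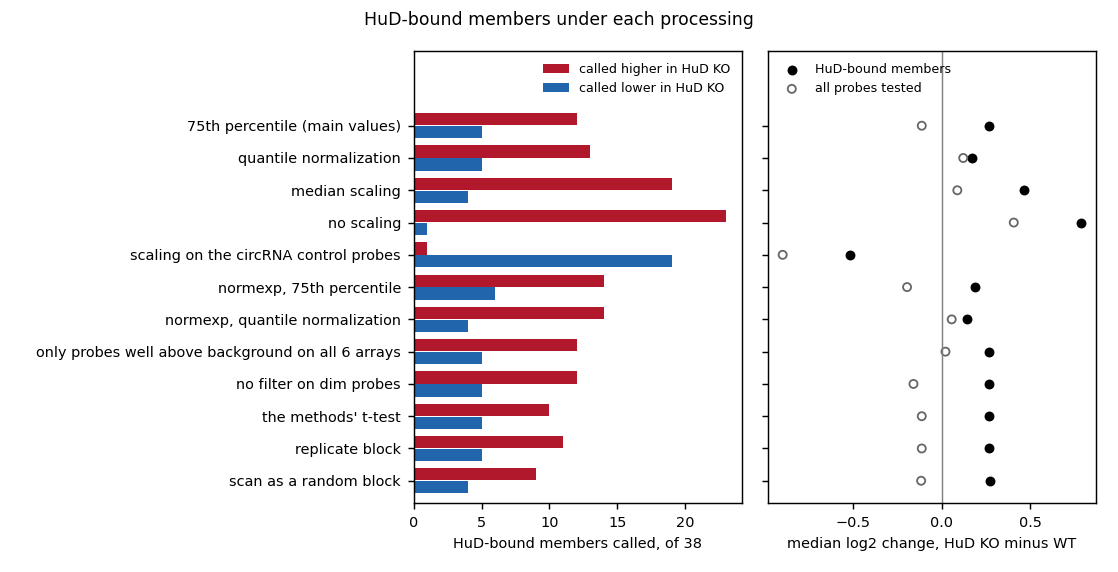
HuD-bound members called higher or lower by processing of the arrays (left, number of 38) and their median log2 change beside that of all probes tested (right). Counts went from 23 higher and 1 lower with no scaling to 1 higher and 19 lower with scaling on the circRNA control probes (all probes: from 39.8% and 19% to 4.55% and 63.1%), and the median of the members (filled) stood right of the median of all probes (open) in every setting shown.

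HuD-bound members of 3′ end processing were all circles of Cpsf6, a subunit of the cleavage factor that selects polyadenylation sites. All 3 were called higher, beside 26.2% of all probes and 43.3% of HuD-bound circRNAs of other genes. Cpsf6 mmu_circRNA_008959 had levels of 3.00, 2.66 and 2.63 on the HuD KO arrays and 1.42, 1.63 and 2.11 on the WT arrays. Means of 3 arrays were 2.77 ± 0.21 (SD) in HuD KO and 1.72 ± 0.36 in WT, so it rose by 1.04 on the log2 scale (SE 0.21, limma adjusted p 0.00334). In none of the 3 circles did the groups overlap. Rises were 0.83 (SE 0.19, limma adjusted p 0.00622) for mmu_circRNA_22683 and 0.78 (SE 0.20, limma adjusted p 0.0111) for mmu_circRNA_015241. Since these circles share the base at their 3′ end and their probes share between 14 and 28 bases, they are not 3 independent measurements of Cpsf6. With scaling on the control probes none of the 3 was called, and their changes were 0.26, 0.04 and -0.00, while mmu_circRNA_015241 was not called with scan as a random block either.

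Host genes for double-stranded RNA binding were Stau2, which carries mRNAs into dendrites, and Strbp, a binding protein of double-stranded RNA best known from germ cells and brain. All 3 of their HuD-bound circles were called higher, beside 26.2% of all probes and 43.3% of HuD-bound circRNAs of other genes. Strbp mmu_circRNA_33369 (chr2:37590656-37626577, exonic) had levels of 1.05, 1.34 and 1.68 on the HuD KO arrays and -0.26, -0.27 and -0.06 on the WT arrays. With a change of 1.56 (SE 0.19, limma adjusted p 0.000286) it rose most among the HuD-bound members, close to 2.94-fold, and its call held under all 17 alternatives, with changes from 0.77 to 2.07. It was the single HuD-bound member still called higher with scaling on the control probes.

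Stau2 mmu_circRNA_19703 (chr1:16366078-16440458) stood at 2.56, 2.61 and 2.47 in HuD KO and at 1.21, 1.13 and 1.56 in WT. Its change was 1.25 (SE 0.16, limma adjusted p 0.000360). Stau2 mmu_circRNA_005382 (chr1:16463034-16509408), from a part of the gene that the first circle does not overlap and with no shared junction stretch, stood at 4.18, 3.93 and 3.69 in HuD KO and at 2.91, 2.93 and 3.09 in WT. It changed by 0.96 (SE 0.17, limma adjusted p 0.00158). Both circles were thus higher on each HuD KO array than on any WT array. The difference of 0.29 between their changes had an SE of 0.14 and an exact permutation p of 0.2, two-sided, where 3 against 3 arrays cannot go below 0.1. With scaling on the control probes both stayed above WT (0.46 and 0.17) without being called.

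Among regulators of translation, 3 of 4 HuD-bound circles were called higher (75%, against 26.2% of all probes and 43.3% of HuD-bound circRNAs of other genes). Fxr2, a paralog of the fragile X protein, had a circle (mmu_circRNA_005799) at 2.96, 2.37 and 3.21 in HuD KO and at 1.74, 1.83 and 2.17 in WT, a change of 0.94 (SE 0.24, limma adjusted p 0.00938). The groups did not overlap, although HuD KO replicate 2 lay close to WT, and the call was lost with the methods' t-test. Cpeb2, which controls translation through elements in the 3′ end of mRNAs, changed by 0.70 (SE 0.17, limma adjusted p 0.00788). Eif4h, a helper of the initiation helicase, changed by 0.58 (SE 0.18, limma adjusted p 0.0226), but stayed called under only 10 of 17 alternatives, with the call lost without HuD KO replicate 1 or 2 and without WT replicate 2 or 3. Fmr1 mmu_circRNA_45495, from the gene of the fragile X protein itself, had a change of 0.35 (SE 0.16, limma adjusted p 0.0836) and was not called, although its HuD KO levels of -0.54, -0.54 and -0.39 lay above the WT levels of -0.94, -0.60 and -0.97. With scaling on the control probes Cpeb2, Eif4h and Fmr1 had changes below 0.

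Tnrc6b, a scaffold of the miRNA silencing complex, gave the single HuD-bound circle of the small RNA pathway. Its levels were 0.77, 0.68 and 0.81 in HuD KO and -0.06, 0.15 and 0.28 in WT, and the change was 0.63 (SE 0.15, limma adjusted p 0.00608). It was higher in HuD KO under every alternative but scaling on the control probes (-0.15).

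Upf2, a core factor of nonsense-mediated decay, had the deepest fall of the HuD-bound members. Levels of mmu_circRNA_32914 were -3.07, -3.40 and -4.27 on the HuD KO arrays and -1.37, -1.68 and -1.73 on the WT arrays, all well above background. The groups were far apart, with HuD KO replicate 3 the lowest array, and the change was -1.99 (SE 0.30, limma adjusted p 0.000783), close to 3.96-fold. The call held under all 17 alternatives, but the size of the change depended on the processing, from -2.77 to -0.48. This circle did not stand in the deposited lower table. The circles of Cnot2, a subunit of the CCR4-NOT deadenylase, were not called, with changes of 0.07 (limma adjusted p 0.731) for mmu_circRNA_011356 and 0.18 (limma adjusted p 0.349) for mmu_circRNA_22666.

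Most HuD-bound members came from splicing regulators, with 21 circles. Of these 2 were called higher (9.52%, against 26.2% of all probes), 3 lower (14.3%, against 37.2%) and 16 not called, and their median change was 0.07. Khdrbs3 mmu_circRNA_016800 (chr15:69013357-69029910), from the gene of the neuronal splicing regulator SLM2, was at 1.15, 0.90 and 1.03 in HuD KO and at 0.03, -0.16 and 0.36 in WT. Its change of 0.95 (SE 0.17, limma adjusted p 0.00201) was the largest rise of the group. Hnrnpu mmu_circRNA_21394 changed by 0.46 (SE 0.16, limma adjusted p 0.0317) and kept its call under only 9 of 17 alternatives, losing it without HuD KO replicate 1 or 2, without WT replicate 1 or 2, and with the replicate block.

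Falls among the splicing regulators were in Hnrnpab and Celf2, and were found under every scaling. Hnrnpab, an hnRNP protein that also travels with mRNAs in dendrites, gave mmu_circRNA_23306 (chr11:51602592-51604817) with levels of -1.35, -1.16 and -1.12 in HuD KO and -0.34, -0.44 and -0.21 in WT. This was a change of -0.88 (SE 0.14, limma adjusted p 0.00114). The second Hnrnpab circle, mmu_circRNA_23305, covers other bases of the gene and changed by -1.20 (SE 0.25, limma adjusted p 0.00387). Celf2, a regulator of splicing through GU-rich elements, gave mmu_circRNA_32929 with levels of -0.15, -0.24 and 0.30 in HuD KO and 0.75, 0.85 and 0.66 in WT, a change of -0.78 (SE 0.18, limma adjusted p 0.00569). No level of the HuD KO arrays reached the WT arrays in these 3 circles. With no scaling none of the 3 was called, at -0.36 for mmu_circRNA_23306, -0.68 for mmu_circRNA_23305 and -0.26 for Celf2, and mmu_circRNA_23305 was not called with normexp and quantile normalization either.

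The remaining 16 circles of splicing regulators had changes between -0.40 and 0.50. They included both circles of Rbfox2, of Celf1, of Mbnl2 and of Qk, and 2 circles of Rbfox1. Nearest to a call were Mbnl2 mmu_circRNA_28048 (0.44, limma adjusted p 0.0588), Rbfox2 mmu_circRNA_28798 (-0.40, limma adjusted p 0.06) and Hnrnpr mmu_circRNA_37793 (0.50, limma adjusted p 0.0640). Qk circles, from the gene of Quaking, had the widest spread between HuD KO arrays, with mmu_circRNA_30224 at 0.32, 0.36 and -1.07 against -0.52, -0.48 and -0.15 in WT. HuD KO replicate 3, the array scanned on its own, was the low one in both Qk circles. Ddx3y, a Y-linked RNA helicase, gave a circle called lower (mmu_circRNA_46008, -0.64, SE 0.23, limma adjusted p 0.0384), which kept its call under only 7 of 17 alternatives and lost it without any one of the HuD KO arrays and without WT replicate 3. Tnpo2, an import receptor of RNA-binding proteins, had a HuD-bound circle that was not called (-0.32, limma adjusted p 0.12).

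To see whether HuD-bound circles of 1 gene changed alike, the difference between both circles was taken on each array, which no scaling by 1 value for an array can alter. There were 12 such pairs, and the smallest p the exact permutation test can give with 3 against 3 arrays is 0.1. In 3 pairs the HuD KO arrays did not overlap the WT arrays. Hnrnpu mmu_circRNA_015788 changed by -0.36 and mmu_circRNA_21394 by 0.46, a difference of -0.83 with an SE of 0.34. Rbfox2 mmu_circRNA_28797 changed by 0.01 and mmu_circRNA_28798 by -0.40, a difference of 0.41 with an SE of 0.07. Their probes share 31 bases, and their circles share the higher coordinate, the 5′ end on the minus strand. The Celf1 pair differed by 0.22 with an SE of 0.09. Each of these had an exact permutation p of 0.1 and a value of 0.4 after adjustment over the 12 pairs, so none passed. The other 9 pairs overlapped, with differences between -0.32 and 0.26 and standard errors between 0.14 and 0.36, and with 3 arrays in a group no difference of any size could pass this test.

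Members of the deposited tables were put there by the authors on the fold change and p of these same arrays, so their values describe the tables and were not tested. In the 32 members from the higher table the median log2 change was 1.29 (from 0.77 to 3.56), and in the 42 from the lower table -1.90 (from -3.78 to -1.15). For both tables as a whole the medians were 1.33 and -1.99. In all 74 the groups did not overlap, which the choice on fold change and p of these same arrays favours. Over all probes, HuD KO levels lay above every WT level in 29.8% and below every WT level in 40.4%. None of the 58 host genes had circles in both tables. On the scale of the deposited log2 values the change had the same sign in all 74, but in 9 members of the lower table it was over 1.5 times smaller than here.

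**Figure D3:**
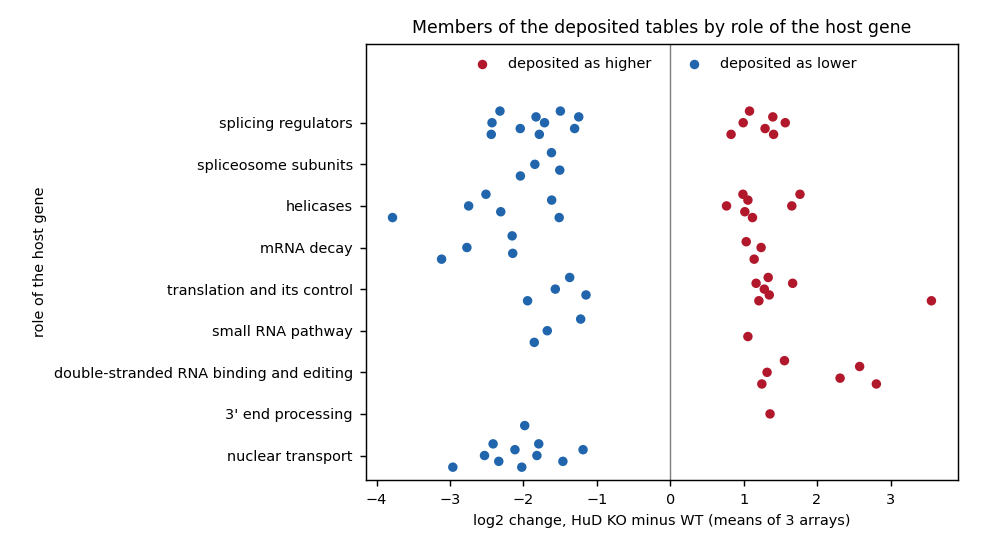
Log2 change (HuD KO minus WT, means of 3 arrays) of the 74 members in the deposited tables, by role of the host gene; red points were deposited as higher and blue as lower, and vertical scatter within a role only separates the points. All 10 circles of nuclear transport genes and all 4 of spliceosome subunits lie left of 0, all 6 of Stau2 and Strbp lie right of 0, and the other roles hold both.

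As a whole, 1140 circRNAs stood in the higher table and 1348 in the lower one. Genes of nuclear transport gave 10 circles to the lower table and 0 to the higher. These came from Tnpo2 and from 7 nucleoporins (Nup98, Nup133, Nup155, Nup188, Nup205, Nup210 and Nup214), the proteins that build the nuclear pore, with changes from -2.96 to -1.19. Spliceosome subunits likewise gave 4 circles to the lower table and 0 to the higher, among them Snrnp48 (-1.84), Snrnp200 (-1.62) and Prpf3 (-1.51). The 6 table circles of Stau2 and Strbp all stood in the higher table. No test of these counts was made, since the tables were chosen on these arrays, and some circles within a gene share much of their junction.

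Genes with a helicase symbol (Ddx or Dhx) gave 7 higher circles from 6 genes and 6 lower circles from 6 others, of which Ddx26b is listed by RefSeq as Ints6l, an Integrator-like gene and no helicase. Dhx32 mmu_circRNA_42424 (chr7:133733967-133749036, exonic) had the deepest fall of all members, with levels of 0.10, 0.14 and 0.05 in HuD KO and 4.01, 4.04 and 3.59 in WT, a change of -3.78. It went from a bright probe to a middling one, with a spread of 0.04 (SD) between the HuD KO arrays. Ddx17 mmu_circRNA_28808, from a helicase that takes part in splicing and miRNA processing, had the largest rise of the role, from 0.96, 1.09 and 1.79 in WT to 3.15, 3.21 and 2.78 in HuD KO, a change of 1.77. Both circles of Ddx6, a helicase of P-bodies, were higher, by 1.66 and 1.12, and their junctions shared no long stretch.

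Circles of the decay machinery were lower for Upf1, Smg1 and Xrn2 and higher for the deadenylase subunits Cnot4 and Cnot6l. Smg1 mmu_circRNA_42195, a circle antisense to the gene of the kinase that acts on Upf1, was at -5.37, -4.70 and -4.89 in HuD KO and at -1.69, -1.75 and -2.18 in WT, a change of -3.12, but of -1.33 in the deposited log2 values. On 1 HuD KO array it was not well above background. Upf1 mmu_circRNA_43009 changed by -2.15, beside the -1.99 of the HuD-bound Upf2 circle. In Xrn2, a nuclear exonuclease, an exonic circle (mmu_circRNA_34755) changed by -2.15 and an antisense one (mmu_circRNA_014244) by -2.77, or by -1.18 and -1.48 in the deposited log2 values. The Cnot4 pair shares 33 bases of junction and its changes were 1.14 and 1.03.

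Eif2s3y, the Y-linked gene of an initiation factor subunit, had 2 circles in the higher table, and all mice were male. Eif2s3y mmu_circRNA_45990 stood at -0.97, -0.96 and -0.87 in HuD KO and at -4.42, -4.19 and -4.86 in WT, where only 1 of 3 arrays was well above background, so that the change of 3.56 starts from the edge of detection. On the scale of the deposited log2 values it was 2.49. Eif2s3y mmu_circRNA_45989, whose span overlaps the first, changed by 1.28 from a WT level of -0.57. Both Y-linked circles were thus higher on all HuD KO arrays, while that of Ddx3y was lower.

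Elavl2, a paralog of the deleted Elavl4, gave 1 circle, mmu_circRNA_37140 (chr4:91263991-91308854, exonic). Its levels were 1.82, 1.91 and 1.58 in HuD KO and 0.06, 0.07 and 0.18 in WT, a change of 1.67 from the higher table. Eif4g3 mmu_circRNA_37824, from a scaffold of the cap-binding complex, was a bright probe in WT, at 4.36, 4.32 and 4.38, and stood at 2.29, 2.02 and 2.91 in HuD KO, a change of -1.94.

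In the small RNA pathway, Ago3 was in the higher table (1.06), while Dicer1 (-1.85), Tnrc6a (-1.22) and Tnrc6c (-1.68) were in the lower one. The HuD-bound circle of Tnrc6b was at 0.63, so circles of the 3 Tnrc6 paralogs stood on both sides of 0, except with scaling on the control probes, where that of Tnrc6b was at -0.15. Cpsf7 mmu_circRNA_32234, from a partner of Cpsf6 in the same cleavage factor, changed by -1.98, with levels of -1.70, -1.78 and -1.39 in HuD KO and 0.44, 0.32 and 0.32 in WT. Among the splicing regulators of the tables, Rbm41 had the largest fall (-2.44) and Khdrbs3 mmu_circRNA_28683 the largest rise (1.57), while Khdrbs1 and Khdrbs2, its paralogs, were in the lower table at -1.50 and -1.78.

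Host genes with several circles included Strbp with 5 members, Cpsf6 with 4, and Rbm4, Khdrbs3 and Rbfox1 with 3 each. In Strbp, changes ran from 1.32 in mmu_circRNA_19242 to 2.81 in mmu_circRNA_19241. The circles mmu_circRNA_19241 and mmu_circRNA_33363, whose ends lie within a few bases of each other and whose probes share 34 bases, had alike values on each array: 2.42, 2.30 and 1.44 against 2.17, 2.16 and 1.40 in HuD KO, and -0.73, -0.68 and -0.85 against -0.65, -0.71 and -0.64 in WT. HuD KO replicate 3 was the lowest HuD KO array for both, but the highest for mmu_circRNA_19242 and mmu_circRNA_33369.

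Rbm4, a splicing regulator, had changes of 1.41, 1.40 and 0.83, with the 2 larger ones in bright circles that share 29 bases and the smallest in a dim circle. All 4 Cpsf6 circles were higher, the fourth (mmu_circRNA_22684, higher table) by 1.36.

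Rbfox1, a splicing regulator of neurons, was the gene where lists parted. Its HuD-bound circles mmu_circRNA_012636 and mmu_circRNA_29181 had changes of 0.07 and 0.28 with overlapping groups (limma adjusted p 0.727 and 0.397). In contrast mmu_circRNA_29172 (chr16:7224310-7408039), a circle that spans both, was in the lower table, at -0.39, -0.57 and -0.25 in HuD KO and 1.39, 1.35 and 1.19 in WT, a change of -1.71. Tnpo2 was the other gene with a HuD-bound and a lower circle, at -0.32 for the HuD-bound exonic circle and -2.96 for the antisense one. Cpsf6, Khdrbs3, Stau2 and Strbp had HuD-bound circles beside circles of the higher table.

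**Figure D4:**
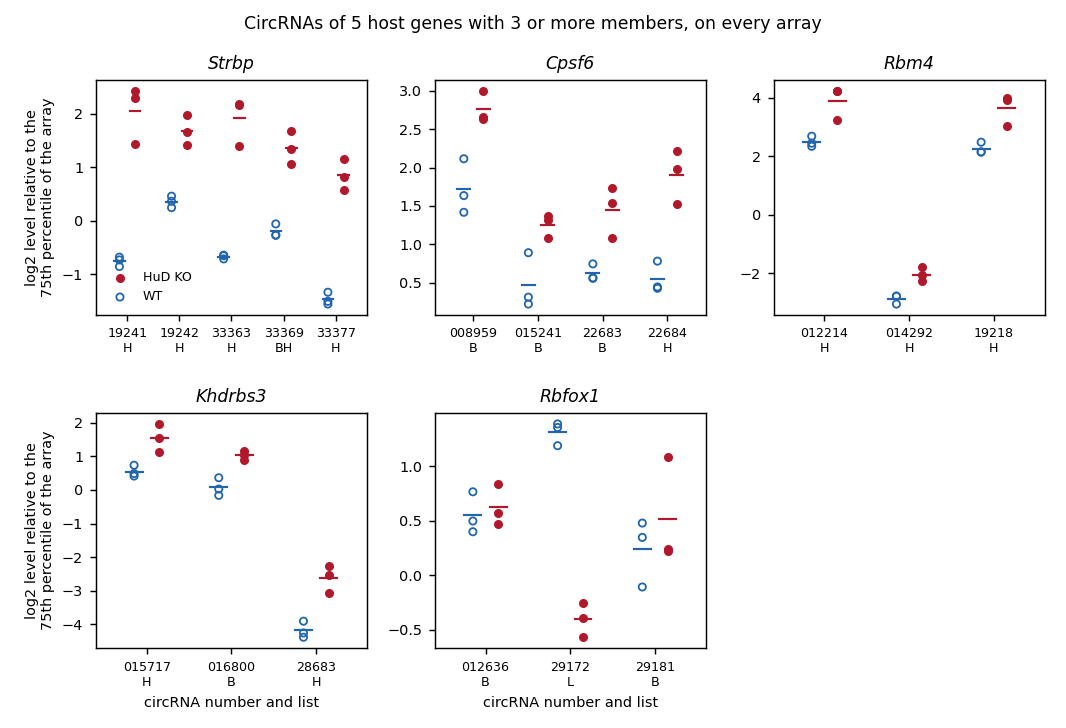
Log2 level of every circle of 5 host genes with 3 or more members on each array, with 0 at that array's 75th percentile (vertical scales differ between panels); filled points are HuD KO, open points WT, bars their means, and letters under the circle's number give its list (B, HuD-bound; H, deposited as higher; L, deposited as lower). Levels in HuD KO exceed those in WT in all circles of Strbp, Cpsf6, Rbm4 and Khdrbs3, but with scaling on the circRNA control probes the change of mmu_circRNA_015241 (Cpsf6) was -0.00, and in mmu_circRNA_29172 (Rbfox1) they lie below.

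Members differed in class as well as direction. Of the HuD-bound members 36 of 38 were exonic (94.7%, against 87.2% of all HuD-bound circRNAs). Of the 38, 0 were antisense to their host, and antisense circles made up only 0.76% of all HuD-bound circRNAs. Of the 42 members deposited as lower, 7 were antisense (16.7%), namely circles of Ddx19a, Eif3a, Eif3i, Hnrnpl, Smg1, Tnpo2 and Xrn2, while 0 of 32 from the higher table were; in the whole lower table antisense circles made up 4.15%. The antisense circles of Eif3a, Eif3i, Hnrnpl, Xrn2 and Tnpo2 span between 60 and 69 bases, hardly more than their probes. How the labelling kept strand is not given in the sources used here, so for antisense circles the strand that was read was not tested.

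HuD is known for U-rich targets, and the 60-base junctions were searched on the given strand for 5 motifs. TTTTT was found in 1 of 38 HuD-bound members (2.6%), that of Ddx3y, against 3.5% of all HuD-bound circRNAs and 5.1% of the 3056 annotated junctions. ATTTA was found in 3 (7.9%), those of Fmr1, Mbnl2 mmu_circRNA_28047 and Rbfox1 mmu_circRNA_29181, against 4.2% of all. GCATG was in 1 (2.6%, against 4.6%), ACTAA in 3 (7.9%, against 3.7%) and TGTANATA, where N is any base, in 1 (2.6%, against 0.2%). All are small numbers, and only the 60 bases at the junction were searched, so a motif elsewhere in the circle was not looked for. Exonic HuD-bound members spanned a median of 6676 bases of the genome, introns included, which is not the length of the spliced circle.

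The deposited tables also list miRNAs with predicted sites in each circle. All 74 members of the tables had such a list, with 267 different miRNAs, of which 205 stood beside a single member. The miRNA listed most often was mmu-miR-7092-3p, with 7 members (9.46%), close to its 10.9% among all 2488 circRNAs of the tables. mmu-miR-7054-5p was listed for 6 members (8.11%, against 2.65% of all), from Dicer1, Elavl2, Nup188, Nup210 and Upf1, of which 5 were lower and 1 higher. Its mature sequence, from RefSeq on GRCm38.p6 (chr7:45012458-45012482, minus strand), is shown with the seed (bases 2 to 8) in capitals because its share differed most from that of all circRNAs among the 3 miRNAs listed most often. No test was made, and both Nup188 circles share most of their junction.
mmu-miR-7054-5p: uAGGAAGGugguugggcugaguacu

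Of 33 circRNAs from 24 other RNA-binding and RNA-processing genes outside these families, 14 were HuD-bound. Among those 14, 6 were called higher and 2 lower at a limma adjusted p under 0.05, (42.9% and 14.3%, against 26.2% and 37.2% of all probes), with a median change of 0.25. All 3 circles of R3hdm1 were called higher, by 0.61 to 1.36. The 2 lower ones were of the mRNA decay factor Rc3h2 (-1.12, limma adjusted p 0.00635) and of the poly(C)-binding protein Pcbp2 (-0.58, limma adjusted p 0.00636). In the deposited tables this second set had 6 circles in the higher and 14 in the lower table, the lowest being that of Ncbp1, the nuclear cap-binding subunit, at -5.30.

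**Figure D5:**
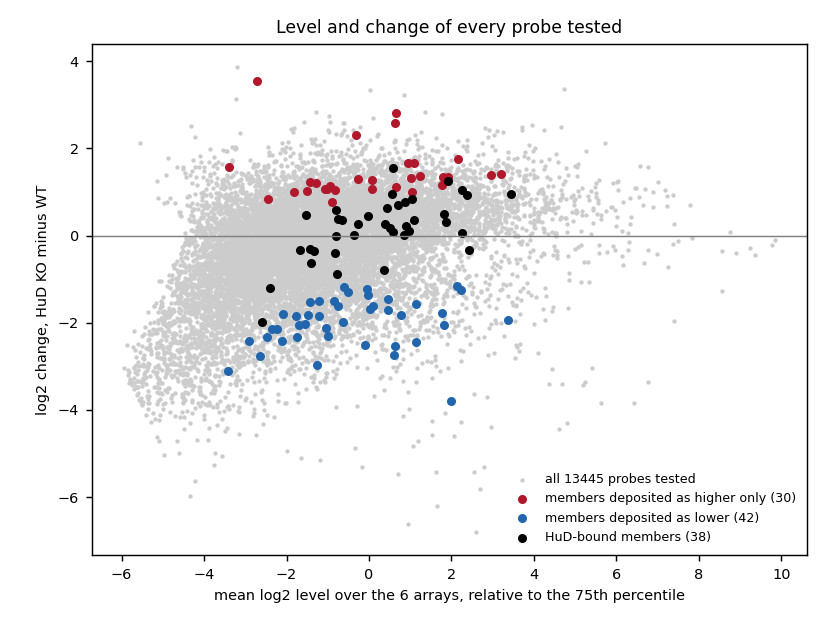
Log2 change (HuD KO minus WT) against mean log2 level over the 6 arrays for all 13445 probes tested (grey), with HuD-bound members in black, members deposited only as higher in red and members deposited as lower in blue. HuD-bound members lie mostly at levels above the median of all probes (-1.30), with changes between -1.99 and 1.56, and the members of the tables lie above 0.77 or below -1.15.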

How the data were processed

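Striatal RNA of 3 HuD KO and 3 WT mice was read on 1-colour arrays with Agilent Feature Extraction 11.0.1.1. Per the file headers, the deposited array files hold the intensity of each spot, background-corrected and not normalized between arrays. The authors also deposited tables of higher and lower circRNAs with raw intensity, log2 intensity and their own fold change and p-values. Those fold changes and p-values were used only through membership of the higher and lower tables. The normalization behind the log2 values is not given in the sources used here. All 444 deposited raw values of members equalled the uncorrected median intensity within 0.001. In the deposited log2 values 74 of 74 table members moved in the direction found here, with a median size of 1.14 for higher and 1.45 for lower members, where 1.29 and -1.90 were found here.

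Spots flagged as outliers (3 to 95 on an array) were left out, and log2 corrected intensity was set against the 75th percentile of circRNA probes. A probe was kept if some group had it clearly above background on every array (13458 probes), and 13445 with enough values were tested with limma 3.58.1 in R 4.3.3 (lmFit, eBayes), two-sided, with Benjamini-Hochberg adjustment over all of them. The script was tested on simulated data. The methods' t-test was an alternative.

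The members, role groups and other gene lists were chosen with earlier results of these data known. Some members and sequences are not reported here by name, though they stay in all counts of calls. Of the others, those named were the HuD-bound members, in each role the table members with the largest rise and fall, Elavl members, and all members of hosts with 3 or more; others are given by counts and ranges, and those named beyond this rule were chosen after their values were seen. Pairs of circles were compared with an exact permutation test over arrays. From the HuD-bound list only membership, names, class, position and junction sequence were used. The normexp alternatives used the median signal, the one that the files hold, with an offset of 50. The replicates are separate mice per the series' design. Array number limits the precision.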

Additional observations from a re-analysis of the deposited data

Results flagged for a closer look

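The circRNA control probes of the array took no part in the comparisons. There are 14 of them with 10 spots each, and their mean log2 level, scaled like that of the members, was 4.53 ± 0.24 (SD over 3 arrays) for HuD KO against 3.75 ± 0.06 for WT. The signal was thus higher in HuD KO by 0.78, with all 14 probes higher and with no overlap of the groups in 11. What these probes target is not stated in the files, and their part in the members' changes was not tested. Used as a scale for the arrays, they turned the median change of the HuD-bound members from 0.27 to -0.52. No group held enough arrays for a check of single arrays that stand apart.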

How the results depend on the processing

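Of 17 alternatives, 4 were other scalings, 2 used normexp, 2 changed the filter, 1 was the methods' t-test, 1 the replicate block and 1 scan as a random block, and 6 left out an array each. Over all probes the count of calls, 8519, moved by less than 1.5 times in each, but its split of 3522 higher and 4997 lower became 5348 and 2552 with no scaling and 612 and 8480 with the control probes. Of the 17 called HuD-bound members, Strbp mmu_circRNA_33369 and Upf2 mmu_circRNA_32914 kept their call throughout, 13 fell short under at least 1 alternative, and 5 changed sign, only with scaling on the control probes. HuD-bound members called higher and lower numbered 19 and 4 with median scaling (34.8% and 31.8% of all probes), 23 and 1 with no scaling (39.8% and 19%), and 1 and 19 with the control probes (4.55% and 63.1%). Leaving out 1 array gave between 10 and 16 higher (16 without HuD KO replicate 3) and 4 or 5 lower. Over all probes, 20.5% to 28.9% were then called higher (28.9% without HuD KO replicate 3) and 32.2% to 39.4% lower. Their median change was 0.47 (median scaling), 0.78 (no scaling), 0.17 (quantile), 0.19 (normexp, 75th percentile), 0.15 (normexp, quantile) and -0.52 (control probes). Scaling by 1 value for an array shifts all probes alike. For the rest the cause was not tested.

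No pairing by replicate number was seen in the deviations of the arrays (r of -0.01, -0.03 and -0.08 over 13338 probes). The replicate block gave 11 HuD-bound members higher and 5 lower (23.9% and 35.5% of all probes), and scan as a random block 9 and 4 (18.4% and 30.9%). The methods' t-test gave 10 and 5 after Benjamini-Hochberg adjustment (23% and 33.1% of all probes). At the methods' fold and unadjusted p it gave 3 and 2, for which no share over all probes is given here. Pairs of circles whose arrays did not overlap, for which the alternatives were chosen after the data were seen, numbered 3 to 6 with an array left out (5 without HuD KO replicate 1, 6 without WT replicate 3).

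Signs changed as follows. With the control probes, called members stood at -0.0018 (Cpsf6 mmu_circRNA_015241), -0.20 (Eif4h), -0.32 (Hnrnpu mmu_circRNA_21394), -0.088 (Cpeb2) and -0.15 (Tnrc6b). Members not called stood at -0.78 and -0.53 (Qk mmu_circRNA_007613 and mmu_circRNA_30224), -0.71 and -0.60 (Cnot2 mmu_circRNA_011356 and mmu_circRNA_22666), -0.71 and -0.51 (Rbfox1 mmu_circRNA_012636 and mmu_circRNA_29181), -0.43 and -0.34 (Mbnl2 mmu_circRNA_28047 and mmu_circRNA_28048), -0.46 and -0.68 (Celf1 mmu_circRNA_34018 and mmu_circRNA_34019), -0.77 (Rbfox2 mmu_circRNA_28797), -0.41 (Mbnl1), -0.28 (Hnrnpr) and -0.44 (Fmr1). No scaling gave 0.16 for Hnrnpu mmu_circRNA_015788, 0.51 for Srsf1, 0.12 for Rbfox2 mmu_circRNA_28798, 0.22 for Celf4, 0.18 for Hnrnpd and 0.20 for Tnpo2 mmu_circRNA_43213. Quantile normalization gave -0.10 for Qk mmu_circRNA_007613, -0.16 for Cnot2 mmu_circRNA_011356, -0.0076 for Rbfox1 mmu_circRNA_012636, 0.12 for Srsf1 and -0.036 for Celf1 mmu_circRNA_34019. For the same circles normexp with quantile normalization gave -0.11, -0.13, -0.029, 0.14 and -0.0062. Srsf1 was at 0.20 with median scaling and at 0.0068 with normexp and the 75th percentile. Scan as a random block gave -0.061 for Qk mmu_circRNA_007613 and -0.0034 for Rbfox2 mmu_circRNA_28797. With an array left out, changes ran from -0.17 to 0.31 for Qk mmu_circRNA_007613, from -0.036 to 0.18 for Cnot2 mmu_circRNA_011356, from -0.034 to 0.18 for Rbfox1 mmu_circRNA_012636, from -0.0087 to 0.42 for Rbfox1 mmu_circRNA_29181, from -0.049 to 0.097 for Rbfox2 mmu_circRNA_28797 and from -0.18 to 0.26 for Srsf1.

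For the named table members 282 of 366 recomputed values moved by less than the spread between replicates, 84 moved further and 0 changed sign.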
